A study of Mus musculus with 7 samples.

Results

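Heat shock proteins and their partner chaperones were examined in MN9D cells labelled as overexpressing hemoglobin chains. The 78 genes were chosen by name: single array symbols starting with Hsp, Hsf, Dnaja, Dnajb, Dnajc, Cct or Bag, together with Stip1, Ahsa1, Cryab, Fkbp4, Fkbp5 and Tcp1, and without Hspg2 and 5 chaperones of the endoplasmic reticulum. They are 78 of the 12393 genes measured with a single-symbol probe set, and each was represented by the brightest of its probe sets. The name rule itself uses no expression difference, but it was set with earlier results of these data known. Although the list is meant for the cytosol, the name rule also takes in the mitochondrial chaperones Hspa9, Hspd1 and Hspe1 and some J proteins of mitochondria and of the endoplasmic reticulum.

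MN9D is a dopamine-making mouse line, a hybrid of embryonic midbrain neurons and a neuroblastoma. RNA of the whole culture was measured on Affymetrix mouse 430A 2.0 arrays, 4 from MN9D cells labelled as overexpressing the alpha and beta chains of mouse hemoglobin (globin-labelled arrays 1 to 4) and 3 from MN9D cells with an empty vector (empty vector arrays 1 to 3). The design text counts 8 arrays, and the control array that failed the submitters' quality assessment was not analysed here. No promoter, clone or pooling of cultures is given in the labels, which also do not say that replicates are separate cultures, so p-values may reflect technical spread among arrays only. Values are RMA expression on the log2 scale, differences are globin-labelled minus empty vector, a ± that follows a difference is its standard error in limma, and a gene is called at a limma adjusted p under 0.05.

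The alpha-globin part of the label was borne out, with 14.30 in globin-labelled arrays and 7.15 in empty vector arrays on the probe set of Hba-a1 and Hba-a2 with the largest rise. Of 3 adult beta-globin probe sets, 1 of Hbb-b2 was higher, at 6.61 in globin-labelled arrays and 6.28 in empty vector arrays (1.26-fold), while the probe set shared by the adult beta-globin genes, at 8.92 against 8.80, and another of Hbb-b2, at 4.42 against 4.47, did not pass. Th, the defining enzyme of the dopaminergic type, was at 11.08 in globin-labelled arrays and 11.78 in empty vector arrays, above 83.7% of probe sets, while the dopamine transporter gene Slc6a3 lay above only 19.3%. Neuronal markers fell more than they rose, with 3 of 6 lower and 1 higher and a mean level of 11.00 to 11.12 in globin-labelled arrays, against 11.35 to 11.49 in empty vector arrays. Of the dopaminergic markers 2 of 5 were lower (Th and Ddc), with mean levels of 8.50 to 8.54 in globin-labelled arrays and 8.61 to 8.77 in empty vector arrays. None was called among 5 astrocyte, 5 microglial, 5 fibroblast and 3 erythroid markers, and 1 each of 4 oligodendrocyte and 4 endothelial markers was lower (Mbp and Kdr). The 3' minus 5' difference of beta-actin was 0.21 ± 0.02 (SD, n = 4) in globin-labelled arrays and 0.22 ± 0.01 (SD, n = 3) in empty vector arrays (two-sided exact permutation p = 0.914). For Gapdh it was -0.24 ± 0.02 (SD) in globin-labelled arrays and -0.27 ± 0.03 (SD) in empty vector arrays (two-sided exact permutation p = 0.257). The smallest p that this permutation test can give here is 0.0286. In bulk RNA, a larger share of cells that express a gene and more RNA per cell cannot be told apart.

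Heat shock proteins keep other proteins from clumping and help them fold, and the heat shock factors raise their genes when unfolded protein accumulates. HSP70 binds short greasy stretches of a client in a cycle driven by ATP, J proteins deliver clients and start that cycle, and BAG and HSP110 proteins release the nucleotide. HSP90 finishes clients such as steroid receptors and kinases, small heat shock proteins hold unfolded clients, and the TRiC chaperonin folds actin and tubulin in a closed chamber. Neurons rely on them because they keep long-lived proteins at synapses and cannot dilute damage by division.

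Of the 78 genes 36 were called, 17 higher and 19 lower in globin-labelled arrays, which is 46.2% against a background of 40.7% of all genes called. Among all genes 20.6% were called higher and 20.1% lower, so the count lies close to what the whole array showed. The median difference was 0.02, beside 0.02 for all genes, and the median size was 0.12, beside 0.12 for all genes. The groups did not overlap for 43 members (55.1%), where this held for 45.7% of all genes. A fold of at least 1.5 among called genes was reached by 4 members, Hspa1b and Stip1 upward and Dnajc12 and Cryab downward, and 5.28% of all genes reached it. Thus the members did not move as one, and the changes are described by role.

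**Figure D1:**
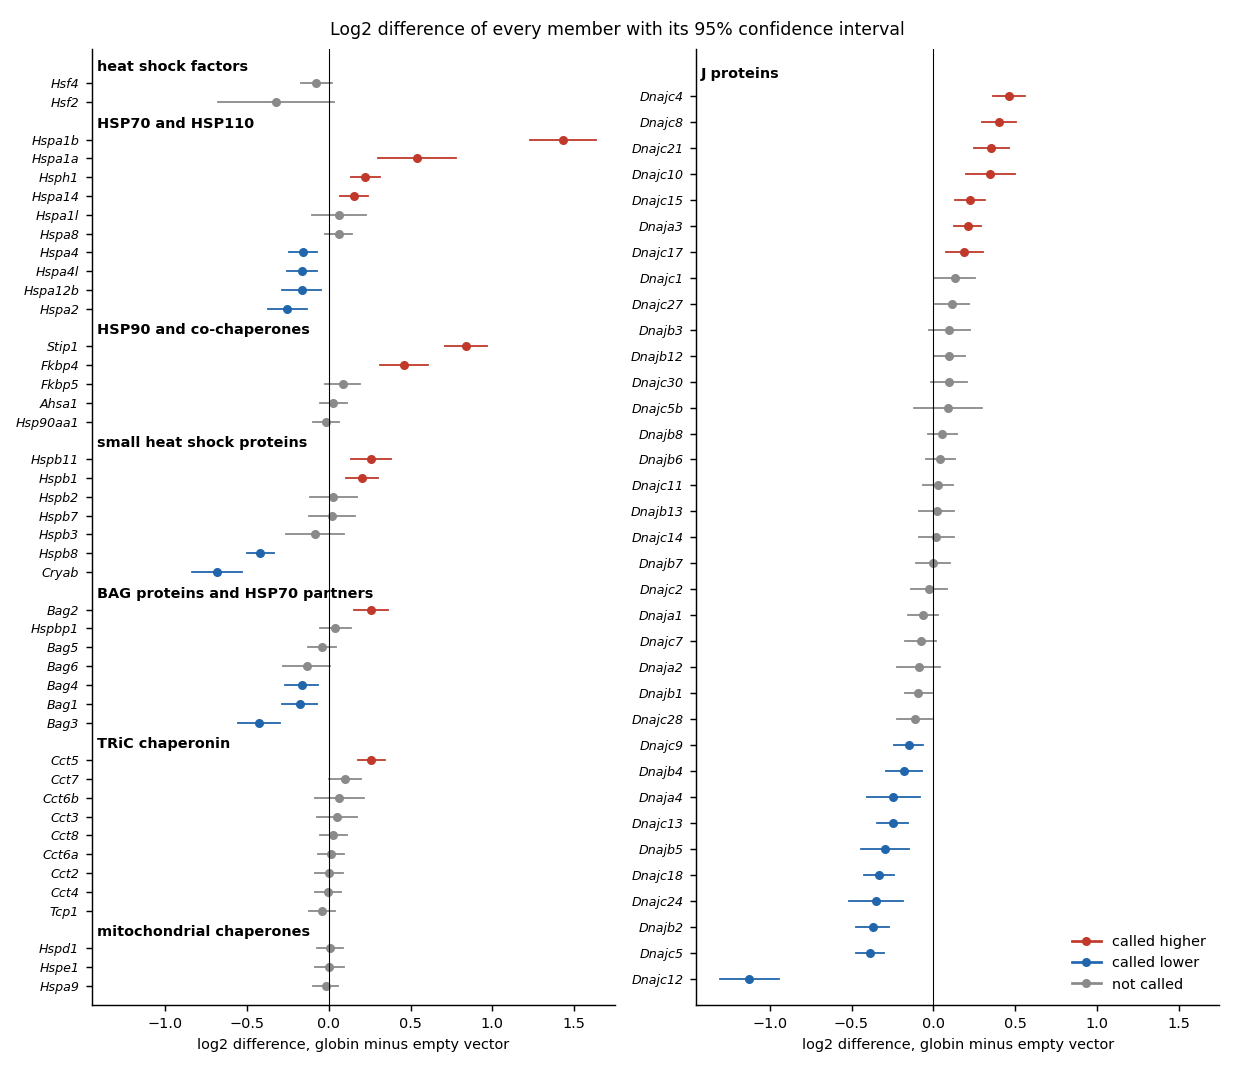
Each point is the log2 difference (globin-labelled minus empty vector, n = 4 and n = 3 arrays) of 1 of the 78 members, the line is its 95% confidence interval, and members are grouped by role with the 35 J proteins at the right. Hspa1b at 1.43 and Dnajc12 at -1.12 lie farthest out, while the mitochondrial chaperones and all TRiC subunits but Cct5 have intervals that hold 0 or, for Cct7, end at 0.00.

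The stress-inducible HSP70 genes rose. Hspa1b, which encodes an HSP70 that is made on stress, read 8.36, 8.56, 8.61 and 8.73 in globin-labelled arrays 1 to 4, against 7.26, 7.12 and 7.01 in empty vector arrays 1 to 3. Its level in globin-labelled arrays lay above every empty vector array by over 1 log2 unit, a difference of 1.43 ± 0.09 or 2.70-fold (limma adjusted p = 3.64e-06). Both of its other probe sets rose too, by 1.76 ± 0.06 and 1.52 ± 0.08. Hspa1a, its neighbouring copy, read 6.67, 6.95, 7.12 and 6.91 in globin-labelled arrays, against 6.53, 6.37 and 6.22 in empty vector arrays. These groups did not overlap either, though the margin was narrow, and the difference was 0.54 ± 0.10 (limma adjusted p = 0.00281). Its only probe set is dim and was among those of 9 members that a filter at the 25th percentile of level removed. The pair are near-identical copies, so that signal on one gene's probes can come from the other and the share of each is uncertain. Hspa1l, the germ-cell HSP70 gene next to them, did not pass, at 4.94 against 4.88.

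**Figure D2:**
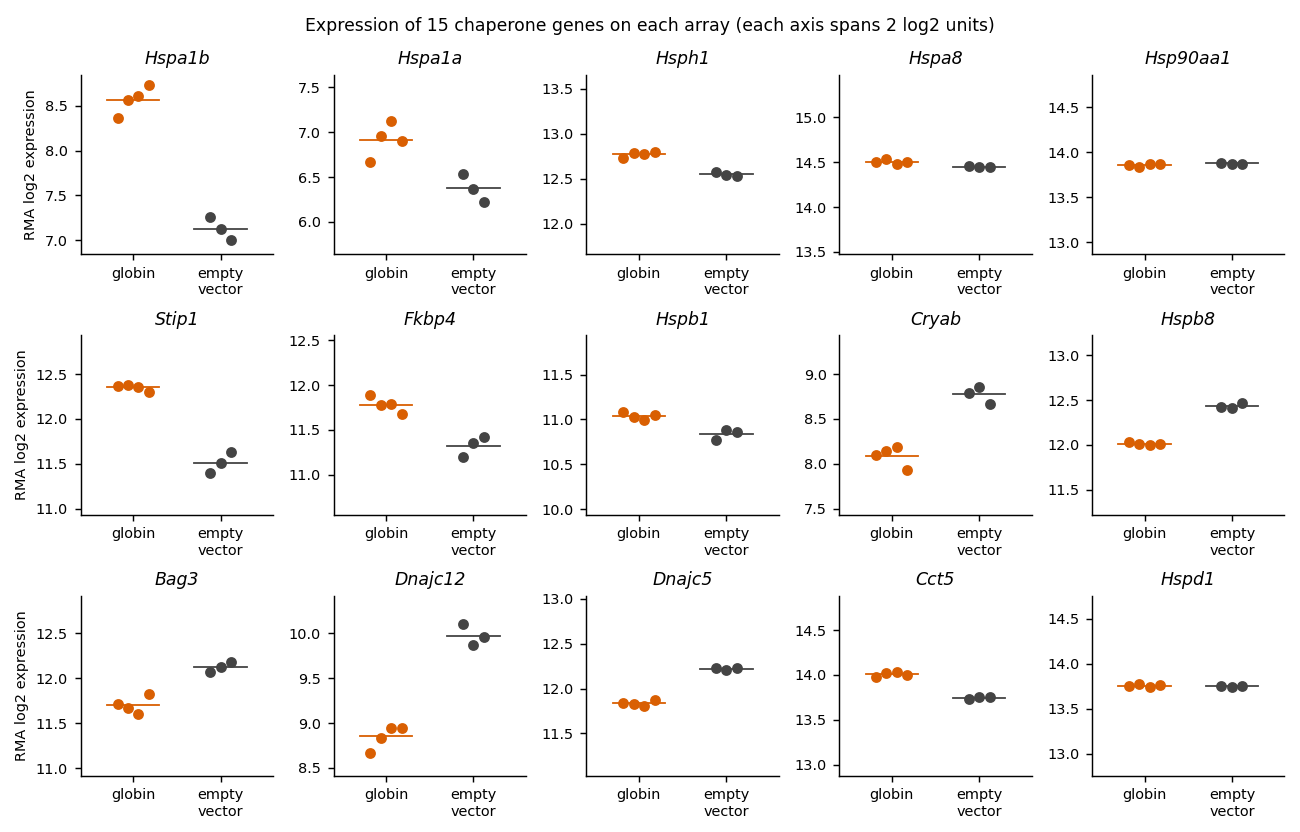
Each point is the RMA log2 expression of 1 gene on 1 array, with globin-labelled arrays at the left, empty vector arrays at the right and a line at the mean of each group, and every vertical axis spans 2 log2 units. Hspa1b and Stip1 stand higher and Dnajc12 and Cryab lower in globin-labelled arrays, and Hsp90aa1 and Hspd1 lie level.

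The promoters of the Hspa1a and Hspa1b pair are shown because both hold a unit of the heat shock element and probe sets of both genes were called higher. Whether the unit has a part in these differences was not tested. Sequences are RefSeq's for build GRCm38.p6, upstream of the transcription start, and capitals mark GAANNTTC, the paired unit of the heat shock element, which reads the same on both strands. Across the 250 bases before the start the 2 promoters share 247 bases (98.8%). The stretches shown lie at chr17:34972213-34972300 and chr17:34959295-34959382, both on the minus strand, and are the same letter for letter, with 96 bases between the motif and the start.
Hspa1a: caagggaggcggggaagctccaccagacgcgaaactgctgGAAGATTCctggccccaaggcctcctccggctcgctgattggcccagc
Hspa1b: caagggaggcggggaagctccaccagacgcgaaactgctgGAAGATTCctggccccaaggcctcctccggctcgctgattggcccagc

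The same unit was found in members that rose, fell or did not pass. Promoters were given for 63 of the 78 members, and 12 of them (19.0%) held GAANNTTC in those 250 bases, against 7.73% of 27025 genes with a promoter in the table. By call these were 4 of 17 members called higher (Hspa1a, Hspa1b, Hspb1 and Fkbp4), 1 of 14 called lower (Dnaja4) and 7 of 32 not called. A longer form, with 1 more GAA or TTC in step and so overlapping the shorter one, was in 3 members (4.76%), against 0.514% of all genes, and these were Hspd1, Hspe1 and Dnajb6, of which 0 were called. Hspa1a and Hspa1b have near-identical promoters and Hspd1 and Hspe1 share their letters, so these counts take in the same sequence more than once. A match is a description of letters and not a site. For comparison are shown Hspb1 (chr5:135887762-135887869, plus strand), Fkbp4 (chr6:128438760-128438847, minus strand), Dnaja4 (chr9:54699429-54699554, plus strand) and Hspe1 (chr1:55088024-55088111, plus strand), where the capitals of Hspe1 cover the longer form, which it shares with Hspd1 on the opposite strand.
Hspb1: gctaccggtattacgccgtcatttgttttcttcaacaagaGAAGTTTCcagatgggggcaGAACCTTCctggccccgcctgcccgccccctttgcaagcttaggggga
Fkbp4: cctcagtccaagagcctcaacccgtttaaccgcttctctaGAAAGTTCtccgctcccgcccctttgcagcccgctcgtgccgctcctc
Dnaja4: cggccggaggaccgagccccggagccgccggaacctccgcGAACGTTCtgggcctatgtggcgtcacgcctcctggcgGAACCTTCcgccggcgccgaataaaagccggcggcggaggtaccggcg
Hspe1: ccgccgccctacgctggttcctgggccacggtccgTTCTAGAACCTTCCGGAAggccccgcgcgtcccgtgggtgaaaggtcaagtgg

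The rest of the HSP70 and HSP110 families divided. Hspa9, an HSP70 of mitochondria that was not called, is counted with the mitochondrial chaperones. Of the 10 other members of both families 4 rose and 4 fell (80% called, against 40.7% of all genes). The rises include Hspa1a and Hspa1b, which may share signal, so the count may hold the same rise more than once. Hsph1, an HSP110 that releases nucleotide from HSP70, read 12.73, 12.79, 12.77 and 12.80 in globin-labelled arrays, against 12.58, 12.54 and 12.53 in empty vector arrays, a rise of 0.22 ± 0.04 (limma adjusted p = 0.00136) with no overlap. Its relatives Hspa4 and Hspa4l went the other way, by -0.16 ± 0.04 each. Hspa4l was not called when empty vector array 1 and globin-labelled array 4 were both left out, though its other probe set also fell with all arrays (-0.18 ± 0.04). For Hspa4, 2 other probe sets did not pass (0.06 ± 0.04 and -0.02 ± 0.06). Hspa2, the testis-enriched HSP70, fell by 0.25 ± 0.05, and Hspa14, which works at the ribosome, rose by 0.15 ± 0.04, though its dimmer probe set did not pass (0.15, limma adjusted p = 0.0648). Hspa12b also fell, by 0.17 ± 0.05, on groups that overlapped, and it was not called when any of 5 single arrays (globin-labelled array 2, 3 or 4, or empty vector array 1 or 2) was left out.

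For Hspa8, the HSP70 made in every cell, the probe sets differed from each other. On its brightest probe set it read 14.50, 14.54, 14.48 and 14.51 in globin-labelled arrays, against 14.46, 14.44 and 14.44 in empty vector arrays, a difference of 0.06 ± 0.04 that did not pass (limma adjusted p = 0.223). The next 2 probe sets did not pass either, with 0.03 ± 0.04 and 0.09 ± 0.06. The dimmest one read 9.44, 9.33, 9.34 and 9.55 in globin-labelled arrays, against 8.48, 8.64 and 8.56 in empty vector arrays, and rose by 0.85 ± 0.06 (limma adjusted p = 1.12e-05). Thus 3 bright probe sets did not pass and 1 dimmer one rose, and which transcripts it detects was not analysed here.

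Of 4 HSP90 co-chaperones Stip1 and Fkbp4 rose, and Ahsa1, Fkbp5 and the chaperone gene Hsp90aa1 did not pass. With Hsp90aa1 counted, 2 of 5 were called (40%), near the 40.7% of all genes. Stip1, known as HOP, which hands clients from HSP70 to HSP90, read 12.36, 12.38, 12.35 and 12.30 in globin-labelled arrays, against 11.39, 11.51 and 11.63 in empty vector arrays. All 4 globin-labelled arrays lay far above the 3 others, a difference of 0.84 ± 0.06 or 1.79-fold (limma adjusted p = 5.76e-06). Fkbp4, the FKBP52 immunophilin of steroid receptor complexes, read 11.89, 11.78, 11.78 and 11.68 in globin-labelled arrays, against 11.20, 11.35 and 11.42 in empty vector arrays, and rose by 0.46 ± 0.06 (limma adjusted p = 0.000445). Its dimmer probe set did not pass, with 0.05 ± 0.05. Hsp90aa1, the inducible cytosolic HSP90, read 13.86, 13.83, 13.87 and 13.87 in globin-labelled arrays, against 13.89, 13.87 and 13.87 in empty vector arrays. That difference of -0.02 ± 0.04 did not pass, with an interval from -0.10 to 0.06. For Ahsa1, which speeds the ATPase of HSP90, and Fkbp5, a glucocorticoid-induced relative of Fkbp4, the differences were 0.03 ± 0.04 and 0.09 ± 0.05.

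Stip1 lay in a stretch of chromosome 19 in which most measured genes were higher. Of the 10 nearest measured genes on either side of it 15 of 20 were called higher and 0 lower, with a median difference of 0.20, and 0.02 was the median of all genes. Macrod1, the gene beside it, rose by 1.13, more than Stip1. Dnajc4, a J protein gene 4 places away, is the member with the largest rise among the J proteins, 0.46 ± 0.04. Around Hsph1, 8 of 16 neighbours were called higher and 0 lower. Around Hspa1b it was 6 higher, Hspa1a among them, and 3 lower of 20, and around Dnajc12 4 higher and 6 lower of 20. Among all genes 20.6% were called higher and 20.1% lower, and the counts around Hspa1b and Dnajc12 lie near those shares. These members were picked for display after their values were seen, and the part of the chromosomal neighbourhood in their differences was not tested.

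**Figure D3:**
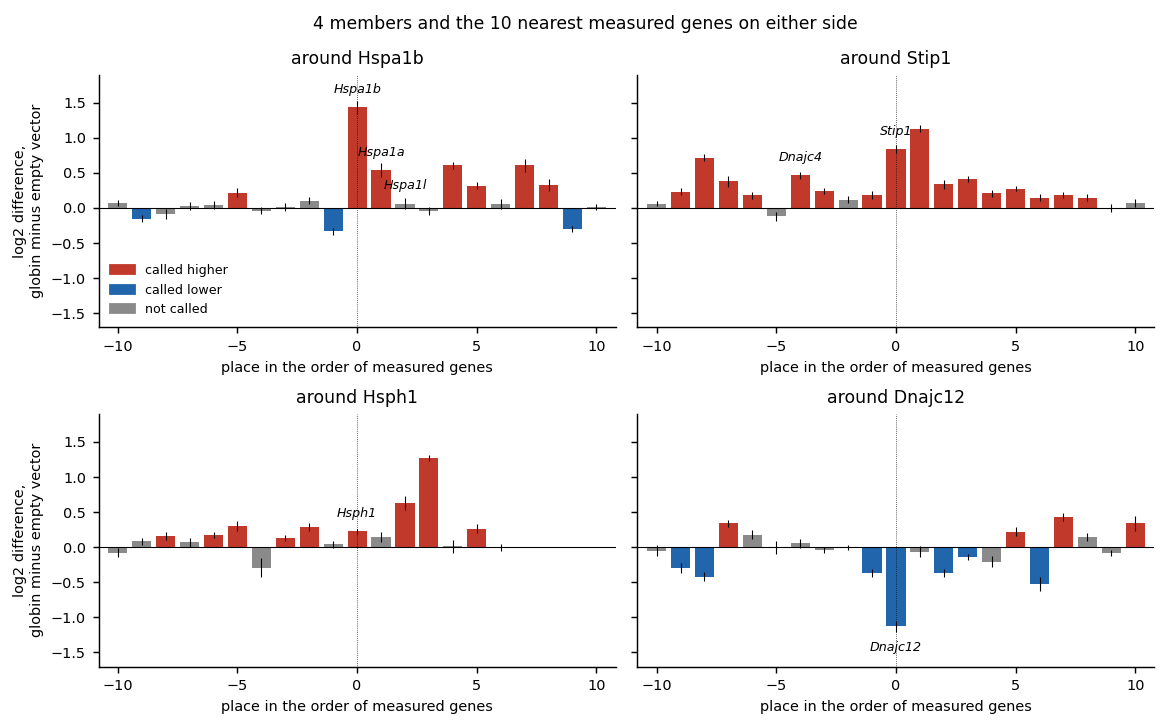
Bars give the log2 difference (globin-labelled minus empty vector) of measured genes in their order along the chromosome around 4 members placed at 0, with limma's standard error as the error bar. Around Stip1 15 of 20 neighbours are called higher, against 20.6% of all genes, whereas the neighbours of Hspa1b and Dnajc12 lie on both sides of 0.

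Small heat shock proteins moved in both directions. Cryab, alpha-B-crystallin, a holdase of muscle, lens and glia, read 8.10, 8.15, 8.18 and 7.93 in globin-labelled arrays, against 8.79, 8.85 and 8.67 in empty vector arrays. The groups lay well apart, and Cryab fell by 0.68 ± 0.07 (limma adjusted p = 5.97e-05). The next probe set fell by 0.64 ± 0.07, and the dimmest, at 5.55 against 5.57, did not pass. Hspb2, which sits head to head with Cryab on the chromosome and makes a muscle small heat shock protein, did not pass, with 0.03 ± 0.06. Hspb1, the HSP27 that guards actin filaments, read 11.08, 11.02, 11.00 and 11.05 in globin-labelled arrays, against 10.77, 10.88 and 10.86 in empty vector arrays, and rose by 0.20 ± 0.04 on each of its 2 probe sets (limma adjusted p = 0.00506 on the brighter). Hspb11 rose by 0.26 ± 0.05, although it is better known as a part of the intraflagellar transport complex of cilia. The muscle genes Hspb3 and Hspb7 did not pass, with -0.09 ± 0.08 and 0.02 ± 0.06.

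Hspb8 and Bag3, which act as partners, both fell. Hspb8 binds Bag3, and the complex passes misfolded clients with HSP70 to autophagy. Hspb8 read 12.03, 12.01, 12.001 and 12.005 in globin-labelled arrays, against 12.42, 12.41 and 12.46 in empty vector arrays, and fell by 0.42 ± 0.04 (limma adjusted p = 2.63e-05). The spread within each group was far smaller than the gap, and both of its other probe sets fell as well, by 0.45 ± 0.05 and by 0.31 ± 0.08. Bag3 read 11.71, 11.67, 11.60 and 11.82 in globin-labelled arrays, against 12.07, 12.13 and 12.18 in empty vector arrays, and fell by 0.43 ± 0.06 (limma adjusted p = 0.000317). Among the other nucleotide release factors and HSP70 partners, Bag2, which restrains the ubiquitin ligase CHIP, rose by 0.26 ± 0.05. Bag1, a link to the proteasome, and Bag4 fell by 0.18 ± 0.05 and by 0.17 ± 0.05. The call was lost without empty vector array 2 or 3 for Bag1 and without empty vector array 1 or 3 for Bag4. The dimmer probe set of Bag4 was also called lower with all arrays, by 0.35 ± 0.08. Bag5, Bag6 and Hspbp1 did not pass, with -0.04 ± 0.04, -0.14 ± 0.06 and 0.04 ± 0.04. Thus 1 of 7 rose and 3 fell (57.1% called, against 40.7% of all genes).

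J proteins were 35 of the 78 members, and 7 of the 35 rose while 10 fell (48.6% called, against 40.7% of all genes). Dnajc12 had the largest fall of any member, on its only probe set. It is a cytosolic J protein that binds the aromatic amino acid hydroxylases, and in humans its loss lowers dopamine and raises phenylalanine. It read 8.67, 8.83, 8.95 and 8.95 in globin-labelled arrays, against 10.10, 9.86 and 9.96 in empty vector arrays, a fall of 1.12 ± 0.08 on the log2 scale to a level 2.18 times lower (limma adjusted p = 7.73e-06). Every globin-labelled array lay more than 0.9 below every empty vector array. Th, one of the hydroxylases, fell by 0.70 on the same arrays. The part of the neuronal and dopaminergic marker levels in the falls of Dnajc12, Dnajc5 and Dnajb2 was not tested.

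Dnajc5, cysteine-string protein alpha, which helps keep SNARE proteins of the synapse folded, was lower on all 5 of its probe sets. On the brightest it read 11.84, 11.83, 11.80 and 11.87 in globin-labelled arrays, against 12.23, 12.21 and 12.23 in empty vector arrays, and fell by 0.39 ± 0.04 (limma adjusted p = 4.32e-05). The others fell more, by 0.59 ± 0.05, by 0.61 ± 0.06, by 0.87 ± 0.11 and by 0.83 ± 0.11. Dnajb2, a neuron-enriched J protein that steers clients to the proteasome, read 10.59, 10.47, 10.51 and 10.53 in globin-labelled arrays, against 10.84, 10.94 and 10.90 in empty vector arrays, and fell by 0.37 ± 0.05 (limma adjusted p = 0.000185). Dnajc13, an endosomal sorting protein, fell by 0.25 ± 0.04, and Dnajc24, of diphthamide synthesis, fell by 0.35 ± 0.07. Dnajc18 and Dnajb5 fell by 0.33 ± 0.04 and by 0.30 ± 0.06. Dnaja4, Dnajb4 and Dnajc9, the last a histone chaperone, completed the falls with differences between -0.25 and -0.15, and the call of Dnaja4 was lost without globin-labelled array 2 or 3 (limma adjusted p = 0.0525 and 0.0579). The difference of Dnaja4 was -0.25 with all arrays and -0.15 without empty vector array 1. With all arrays, both of its other probe sets were called lower too, by 0.25 ± 0.05 and by 0.23 ± 0.05. The call of Dnajb4 was lost without empty vector array 1 and that of Dnajc9 without empty vector array 2. The dimmer probe set of Dnajb4 was also called lower with all arrays, by 0.28 ± 0.05.

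Beside Dnajc4, 6 J proteins rose. Dnajc8, which goes with the spliceosome, read 13.002, 13.07, 13.09 and 13.09 in globin-labelled arrays, against 12.73, 12.64 and 12.60 in empty vector arrays, and rose by 0.40 ± 0.05 (limma adjusted p = 0.00013). Dnajc21, a factor of ribosome assembly, rose by 0.36 ± 0.05, and Dnajc10, the disulphide reductase ERdj5 of the endoplasmic reticulum, rose by 0.35 ± 0.07. The mitochondrial J proteins Dnaja3 and Dnajc15 rose by 0.21 ± 0.04 and by 0.22 ± 0.04, and Dnajc17 by 0.19 ± 0.05, a call lost without empty vector array 3. The dimmest probe sets of Dnaja3 and Dnajc17 did not pass, with 0.08 and 0.09. The main cytosolic partners of HSP70 did not pass on their brightest probe sets, with -0.09 ± 0.04 for Dnajb1, the classical HSP40, and -0.06 ± 0.04 for Dnaja1, whose dimmer probe set fell by 0.34 ± 0.05. The remaining members among the 18 J proteins not called lay between -0.11 and 0.13.

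The TRiC chaperonin and the mitochondrial chaperones had the smallest median sizes of difference among the roles, 0.04 and 0.01. Of 9 TRiC genes 1 was called (11.1%, against 40.7% of all genes). Cct5, the epsilon subunit, read 13.98, 14.02, 14.03 and 14.00 in globin-labelled arrays, against 13.73, 13.75 and 13.76 in empty vector arrays, and rose by 0.26 ± 0.04 (limma adjusted p = 0.000412). The other subunits differed by 0.00 for Cct2, 0.05 for Cct3, -0.00 for Cct4, 0.01 for Cct6a, 0.10 for Cct7, 0.03 for Cct8 and -0.04 for Tcp1, the alpha subunit, and the testis form Cct6b by 0.06. A ring holds the subunits in equal number, and here a single one was called. For the mitochondrial trio the differences were 0.01 ± 0.04 for Hspd1 (HSP60), 0.00 ± 0.04 for its lid Hspe1 and -0.02 ± 0.04 for Hspa9 (mortalin). Hspd1, for instance, read 13.75, 13.78, 13.74 and 13.76 in globin-labelled arrays, against 13.75, 13.74 and 13.75 in empty vector arrays. Most of these genes were bright: 14 members had a mean over 13, where the highest values of the arrays were 15.09 to 15.15, and 1 of the 14 was called, while 38.4% of all genes over 13 were called.

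The members hold 2 heat shock factors, Hsf2 and Hsf4, and neither passed. Both are dim and were among the 9 members that the filter on dim probe sets removed, so small changes could be missed. Hsf1 is not among the members, so its level is not described here. Hsf2, a factor of development and of proteasome stress, read 5.10, 5.12, 4.96 and 4.98 in globin-labelled arrays, against 5.84, 5.12 and 5.12 in empty vector arrays. Its difference of -0.32 ± 0.16 rested on empty vector array 1 and was -0.08 without it (limma adjusted p = 0.324). Hsf4, a factor of the lens, differed by -0.08 ± 0.04.

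Probe sets of a gene often differed in whether they were called. The 78 members had 153 probe sets. Over the whole array 39.5% of probe sets were called, and a matching share for all genes with several probe sets is not given here. Of 43 members with more than 1, all probe sets passed in one direction for 13, none passed for 14 and part passed in one direction for 16, and 0 had calls in both directions. Those with part called include Hspa8, Cct4 (1 of 6 fell, by 0.33 ± 0.04) and Dnajb6, a suppressor of polyglutamine clumping (2 of 4 rose, by 0.25 ± 0.04 and by 0.19 ± 0.06). Called members with only 1 probe set, and so no second reading, include Stip1, Dnajc12, Bag3, Dnajb2, Cct5, Dnajc4 and Dnajc8.

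**Figure D4:**
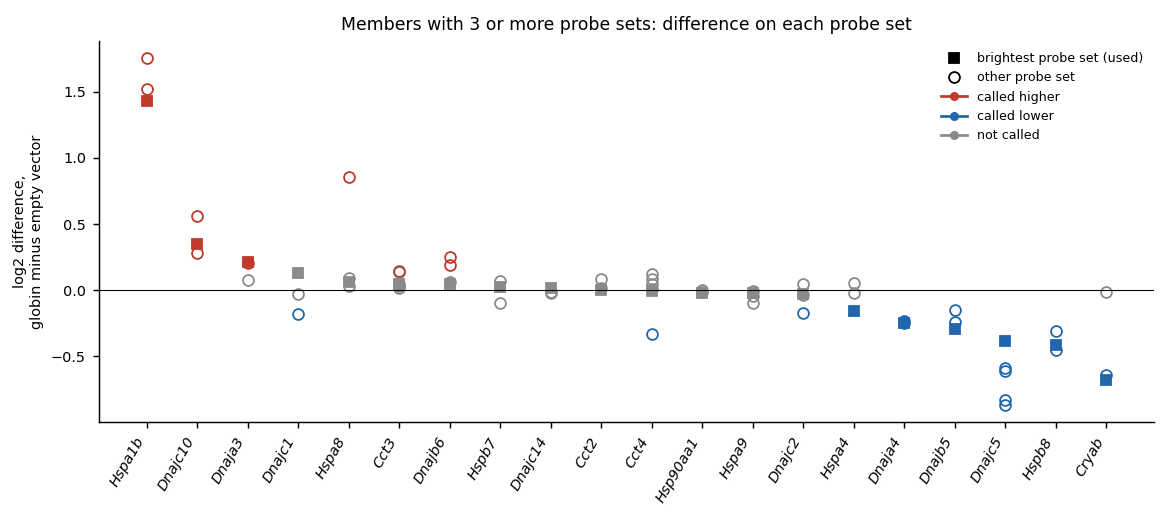
Log2 differences (globin-labelled minus empty vector) are drawn for every probe set of the members with at least 3, filled squares for the brightest and open circles for the others, coloured by call. All 3 probe sets of Hspa1b are higher and all 5 of Dnajc5 lower, and a lone open circle of Hspa8 lies at 0.85 above its 3 others.

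Outside the members, 41 of 47 listed folding genes were measured, and 13 rose while 3 fell, with a median of 0.05. They include prefoldin, HSP90 and HSP70 adaptors, mitochondrial proteases and tubulin cofactors. The largest rises were Serpinh1, the HSP47 chaperone of collagen, by 0.71 ± 0.05, Pfdn6, a prefoldin subunit, by 0.32 ± 0.05, Hikeshi, which carries HSP70 into the nucleus, by 0.31 ± 0.04, and Nudc by 0.31 ± 0.06. Serpinh1 read 7.99, 8.09, 7.97 and 7.97 in globin-labelled arrays, against 7.30, 7.37 and 7.20 in empty vector arrays, with no overlap. The falls were Clpb, a mitochondrial disaggregase, by 0.54 ± 0.06, Ttc4, an HSP90 co-chaperone, by 0.35 ± 0.07, and Dedd2 by 0.27 ± 0.04. Dedd2 stood on the list, but no folding role is described for it here. The called share of the 41 genes, 39.0%, is near the 40.7% of all genes. By direction the 13 rises outnumbered the 3 falls, while 20.6% of all genes were called higher and 20.1% lower.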

How the data were processed

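Values are on the log2 scale as the authors deposited them, summarised by RMA per the submitters' processing notes; a software version is not given in the sources used. RMA corrects background, equalises the arrays' distributions and summarises probes, so a change shared by most genes is not visible. The 7 columns were used as deposited. After leaving out 64 controls, 22626 of 22690 probe sets were fitted in R 4.3.3 with limma 3.58.1 (lmFit, eBayes), comparing the 2 groups with no covariate and adjusting two-sided p-values by Benjamini-Hochberg over every probe set fitted. The platform's annotation gave 20380 probe sets a single symbol, 691 several and 1555 none, and all 78 members matched RefSeq by Entrez identifier. Members are described on the brightest probe set. Arrays have no read depth, and their number limits precision. The fit was tested on simulated data.

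Members and lists were chosen with earlier results of these data known. Named with values were the 12 largest called rises and falls, the extremes of each role, 17 measured textbook heat shock genes, all TRiC subunits, and the largest called rises and falls of the other folding genes. Further members are named to account for every call. Alternatives were array scaling, variance moderation, a filter on dim probe sets, the probe set per gene, a minimum fold, a replicate block and left-out arrays.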

Additional observations from a re-analysis of the deposited data

How the results depend on the processing

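None of the 43 members named by rule reversed a call under the alternatives, though 13 of 641 values turned sign where no call stood in either. In 14 alternative fits on the same probe sets, 25 of the 36 called members (14 higher, 11 lower) passed in every one that included them. Counts of called members stayed between 28 and 39 across these fits. Leaving out empty vector 1 and globin-labelled 4 as an array pair, though the labels do not pair them, gave 33. With a fold of at least 1.5 also required, 4 members were called, 2 higher and 2 lower, and 1 other folding gene. Same-numbered arrays did not deviate together (correlations -0.36, -0.30 and -0.14), and the labels state no pairing. Arrays with different numbers were not compared in this way, so shared handling among them was not examined. The replicate block, which also leaves out globin-labelled array 4, called 28 members and 9 other folding genes instead of 16, and called 6337 of all probe sets against 8931. By construction it uses fewer arrays, and 8 members lost their call in it: Hspb1 (0.20, limma adjusted p = 0.058), Hspa4, Hspa4l, Hspa14, Hspa12b, Bag1, Bag4 and Dnajc9.

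The members' median of 0.016 is close to 0 and moved with most settings: 0.025 with median-centred arrays, -0.0022 after a further quantile normalisation, 0.0086 under the block, 0.0047 without that array pair, 0.00090 on the dimmest probe sets and 0.0034 to 0.018 with single arrays left out; no direction is drawn from it. On dimmest probe sets 7 members lost their call, Cryab (-0.02), Fkbp4 (0.05), Hspb11 (0.04), Dnaja3, Dnajc17, Hspa14 and Hspa4, and 7 gained one, Cct3, Dnaja1, Dnaja2, Dnajb6, Hspa8 and, lower where the brightest probe set was positive but not called, Dnajc1 and Dnajc27. Without variance moderation Dnaja4 and Hspa12b lost their call, and Dnajb1 and Hspa8 gained one. The trend and robust settings called Cct7 and Hspa8. Causes were not tested.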
